A study of Drosophila melanogaster with 5 samples.

Results

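Cell D is 1 GFP-labeled cell from the pars intercerebralis (PI) of the *Drosophila* brain whose library was sequenced but set aside by the study, which kept 4 others (cells 1 to 4). Of the 5 libraries, it is the 1 labeled as discarded, and it is set here against each kept cell singly across all genes of the count tables, 17453 in number. Members of 2 gene sets were chosen by level. RPM is the reads of a gene scaled to a library total of 1000000 reads assigned to genes. The genes of cell D alone had at least 100 RPM in cell D and at most 1 read in each kept cell, and there were 20 of them. The genes low in cell D had at least 100 RPM in each kept cell and at most 10 RPM in cell D, and there were 16. With 1 cell against 4, nothing was tested, and all differences below are descriptions of these libraries.

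The study sequenced single PI cells to find genes through which circadian output neurons signal. Cells came from flies of the genotype Kurs58-GAL4/Dilp2mCherry with UAS-mCD8::GFP/+, or UAS-nlsGFP/Dilp2mCherry with c767-GAL4/+. All flies therefore carried Dilp2mCherry, which marks the insulin-producing PI cells, and the cells that were drawn into the pipet were green cells beside red ones. Both drivers also label cells outside the PI, and neither the labels nor the methods state which driver marked which cell, or the age or sex of the flies. The methods say that cell D was left out because its reads mapped indiscriminately. By the labels cell D has its own animal number, but the series text counts 4 animals for 5 cells, and which cells may have shared an animal cannot be told. No sequencing batch or date is given.

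PI neurons are neurosecretory cells that release peptides such as DH44, SIFamide and insulin-like peptides. The fast transmitter of a fly neuron is usually read from the enzymes that make it and the transporters that load it into vesicles, such as choline acetyltransferase for acetylcholine or VGlut for glutamate. Peptides are cut from precursors and stored in dense-core vesicles. Cell surface proteins of the Dpr, DIP, Beat and Side families differ between neuron types and take part in the choice of synaptic partners.

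The library of cell D held 4913151 reads assigned to genes, and those of the kept cells held 3451331 to 4441952. Thus 1 read was worth 0.204 RPM in cell D and 0.225 to 0.290 RPM in the kept cells. Of the trimmed reads, 3.51% mapped to several places in cell D, against 13.7%, 23.0%, 15.3% and 7.46% in cells 1 to 4. Of the uniquely mapped reads, 37.0% fell outside exons in cell D, against 31.7%, 32.7%, 27.0% and 36.9%. The measure by which the study judged mapping as indiscriminate is not stated. Cell D had 7110 genes at 1 RPM or more, against 3097 to 6118 in the kept cells, and 1658 at 100 RPM or more, against 1141 to 1394. All 10 pairs of libraries differed far beyond counting error, and the chi-square divided by its degrees of freedom was 535 to 702 between cell D and the kept cells and 144 to 686 among the kept cells. Cell 3 stood apart from the other kept cells in that *Dh44* alone took 131997 RPM of it. Intervals given below are exact Poisson 95% intervals. They cover counting error only, since amplification copies each molecule many times.

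The 6 markers by which cell D was described as neuron-like were chosen with earlier results of these data known. All 6 were high in it, which is a description and no separate support for that name. The long noncoding RNA *lncRNA:mimi* was at 38944 RPM in cell D, against 5773, 1607, 1963 and 978 RPM in cells 1 to 4. *IA-2*, a protein of dense-core vesicles, was at 33053 RPM in cell D, against 701, 1366, 9748 and 693 RPM. *pros*, a homeodomain transcription factor, was at 14923 RPM in cell D, against 251, 1803, 831 and 1281 RPM. For these 3 genes cell D was above every kept cell, by 6.75-fold, 3.39-fold and 8.28-fold over the highest. The exception was *lncRNA:noe*, a neuronal noncoding RNA, at 28969 RPM in cell D, against 1292, 4009, 29593 and 3023 RPM, so that cell 3 was level with cell D. *ChAT* and *VGlut*, the other markers, are described with the transmitters.

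Across genes, much of what the kept cells shared was also present in cell D. Of the 422 genes at 100 RPM or more in each kept cell, 353 (83.6%) reached 100 RPM in cell D too. Conversely, of the 1658 genes at 100 RPM or more in cell D, 353 (21.3%) reached that level in all 4 kept cells and 523 (31.5%) in none of them. At least 1 kept cell had 1 RPM or more for all but 29 of the 1658 genes (1.75%). Cell D was above every kept cell for 1014 of the 1658 (61.2%), and below every kept cell for 216 of the 422 (51.2%).

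**Figure D1:**
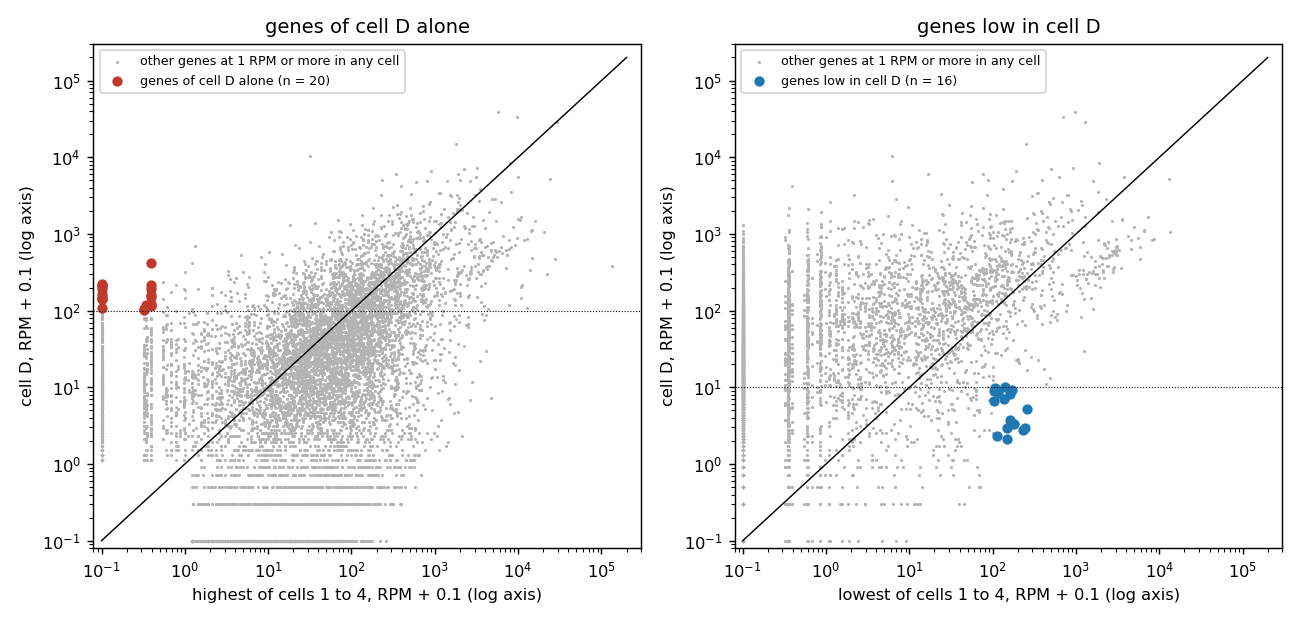
Level of each gene in cell D (y axes, RPM + 0.1, log scale) against the highest of the 4 kept cells (left, x axis) and against the lowest of them (right, x axis), with the line of equal levels and the limit set for cell D dotted. The 20 genes of cell D alone sit at the left edge above 100 RPM, and the 16 genes low in cell D sit below 10 RPM at 100 RPM or more of the lowest kept cell.

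The 20 genes of cell D alone were 1.21% of the genes at 100 RPM or more in that cell. The same rule, turned on each kept cell in place of cell D, gave 2 genes (0.143%) for cell 1, 0 genes (0%) for cell 2, 6 genes (0.526%) for cell 3 and 4 genes (0.298%) for cell 4. Cell D thus had the highest count and share of the 5 libraries. Its 20 genes together took 0.336% of its reads. Over all 20 genes, cell D had 16491 reads, against 0, 8, 1 and 2 reads in cells 1 to 4. In 9 of the 20 genes every kept cell had 0 reads.

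**Figure D2:**
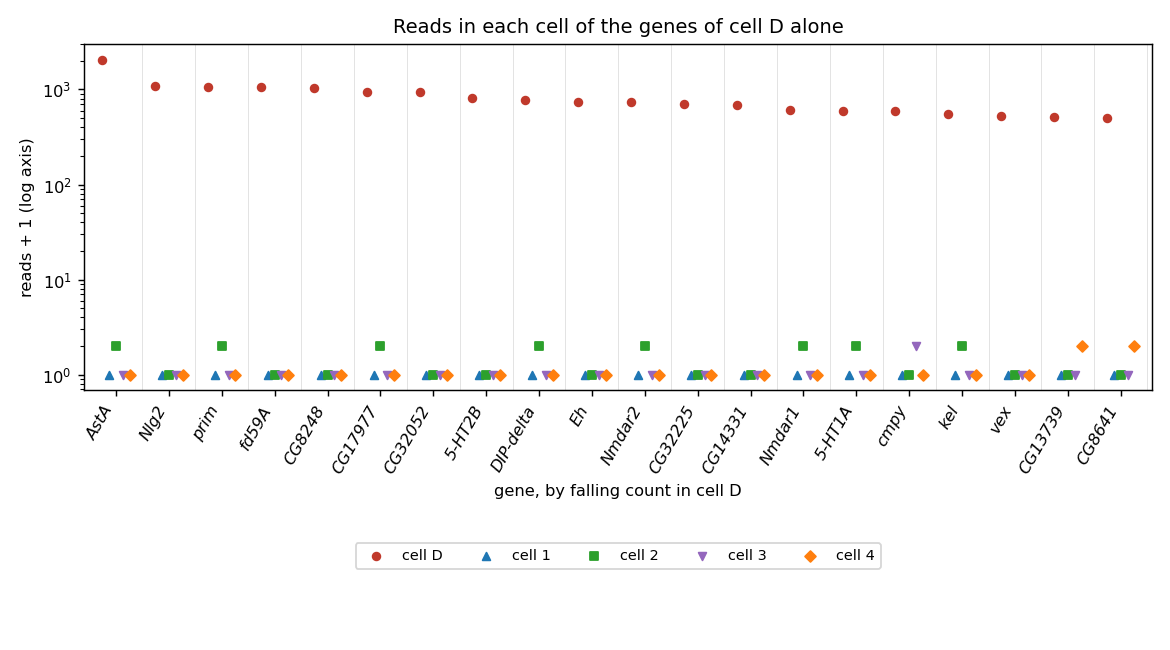
Reads + 1 (log axis) of the 20 genes of cell D alone in cell D and in cells 1 to 4. Cell D had 494 to 2052 reads of each gene, and every kept cell had 0 reads or 1 read.

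Of the 20 genes, 13 were in no gene list, and the others included peptides, receptors and adhesion proteins. *AstA*, the precursor of the allatostatin A peptides (chromosome 3R, 24760530 to 24765071), had 2052 reads in cell D and 0, 1, 0 and 0 reads in cells 1 to 4. That is 418 RPM (400 to 436) in cell D, and 6635 times the level of the kept cells pooled (1190 to 262191). The rule that chose the 20 genes makes such a ratio large in advance, and the interval takes no account of that choice. This ratio and the folds of the other members below therefore restate the rule and are no separate support. *Eh*, which encodes eclosion hormone, a peptide of the molting sequence (3R, 17446642 to 17448858), had 741 reads in cell D and 0 in each kept cell. Against the limit of 3 reads over the pooled kept cells, its level in cell D was at least 799-fold higher.

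Receptors formed a further group. *5-HT2B*, a serotonin receptor gene (3R, 8578205 to 8629996), had 813 reads in cell D and 0 in each kept cell, a level at least 876-fold higher. *5-HT1A*, another serotonin receptor gene (2R, 19067155 to 19121958), had 588 reads in cell D and 0, 1, 0 and 0 in the kept cells. The subunits of the NMDA-type glutamate receptor behaved alike. *Nmdar1* (3R, 5508842 to 5523328) had 600 reads in cell D, or 122 RPM (113 to 132), and 0, 1, 0 and 0 reads in the kept cells. *Nmdar2* (X, 1483625 to 1507809) had 734 reads in cell D, or 149 RPM (139 to 161), and again a single read, in cell 2.

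Adhesion and transcription were represented as well. *Nlg2*, which encodes a neuroligin, a postsynaptic adhesion protein (2L, 6874900 to 6906656), had 1077 reads in cell D and 0 in each kept cell, a level at least 1161-fold higher. *DIP-delta*, a surface protein that binds Dpr partners (3L, 5424109 to 5442399), had 779 reads in cell D and 0, 1, 0 and 0 in the kept cells. *fd59A*, a forkhead transcription factor gene (2R, 22868159 to 22870706), had 1051 reads in cell D and 0 in each kept cell, a level at least 1133-fold higher. *cmpy* (crimpy), which acts in growth factor signaling at the fly motor nerve terminal, had 587 reads in cell D and 0, 0, 1 and 0 in the kept cells.

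The remaining members are less characterized or their role here is not stated. *prim* had 1060 reads in cell D, *CG8248* had 1044, *CG17977* had 943, *CG32052* had 941, *CG32225* had 706 and *CG14331* had 691. Nearest the limit from above were *kel*, at 113 RPM in cell D, *vex* at 107 RPM, *CG13739* with 510 reads and *CG8641* at 101 RPM. The Poisson intervals of the last 3 in cell D include the limit, as that of *vex* (97.7 to 116 RPM) and that of *CG8641* (91.9 to 110 RPM) show. *CG13739* was the only member with reads in cell D shared with an overlapping gene, 824 in cell D, against 0, 1, 0 and 31 in cells 1 to 4. Its MMQuant count of unshared reads was 215 in cell D, or 41.4 RPM, which is under the limit of 100 RPM, and 0 in each kept cell.

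With the same limit on reads, the 10 genes nearest below 100 RPM in cell D lay between 80.4 and 96.3 RPM. *DIP-zeta* (96.3 RPM in cell D), *side-III* (88.9 RPM), the GABA receptor gene *GABA-B-R3* (88.1 RPM), the kainate-type receptor gene *KaiR1D* (84.9 RPM) and *dpr15* (81.2 RPM) had 0 reads in every kept cell, as did *CNMaR*, a peptide receptor gene (80.8 RPM), and *pigeon* (80.4 RPM). *slou*, a homeobox gene, was at 89.8 RPM in cell D with 1 read in cell 4, and *p130CAS* at 80.4 RPM, also with 1 read in cell 4. *Syt12* was at 81.2 RPM in cell D with 1 read in each of cells 2, 3 and 4. Other genes passed 100 RPM in cell D but had a few more reads in a kept cell, such as *dpr20*, at 173 RPM with at most 2 reads, and *DIP-beta*, at 215 RPM with at most 3. The others nearest on that side were *CG31345*, *Atg10*, *CG12594*, *RIC-3*, *CG10384*, *ths*, *olf413* and *lncRNA:CR44024*, at 111 to 696 RPM in cell D. Allowing up to 3 reads gave 26 genes, and up to 10 reads gave 41.

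All 20 genes were protein coding and lay on every large chromosome arm, with 2 on X, 2 on 2L, 6 on 2R, 5 on 3L and 5 on 3R. Their annotated spans had a median of 11343 bases, against 8091 bases for all genes at 100 RPM or more in cell D and 1709 bases for all annotated genes. *CG14331* and *Eh* are neighbors on the minus strand of 3R, 5913 bases apart with no annotated gene between them.

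The 16 genes low in cell D were 3.79% of the 422 genes at 100 RPM or more in each kept cell. Under the same rule with each kept cell in the place of cell D, the count was 15 genes (3.55%) for cell 1, 0 (0%) for cell 2, 58 (11.7%) for cell 3 and 0 (0%) for cell 4. The count for cell D was close to that of cell 1 and below that of cell 3. None of the 16 was missing from cell D, which had 10 to 49 reads of each. No gene at 100 RPM or more in each kept cell was at 1 RPM or less in cell D.

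**Figure D3:**
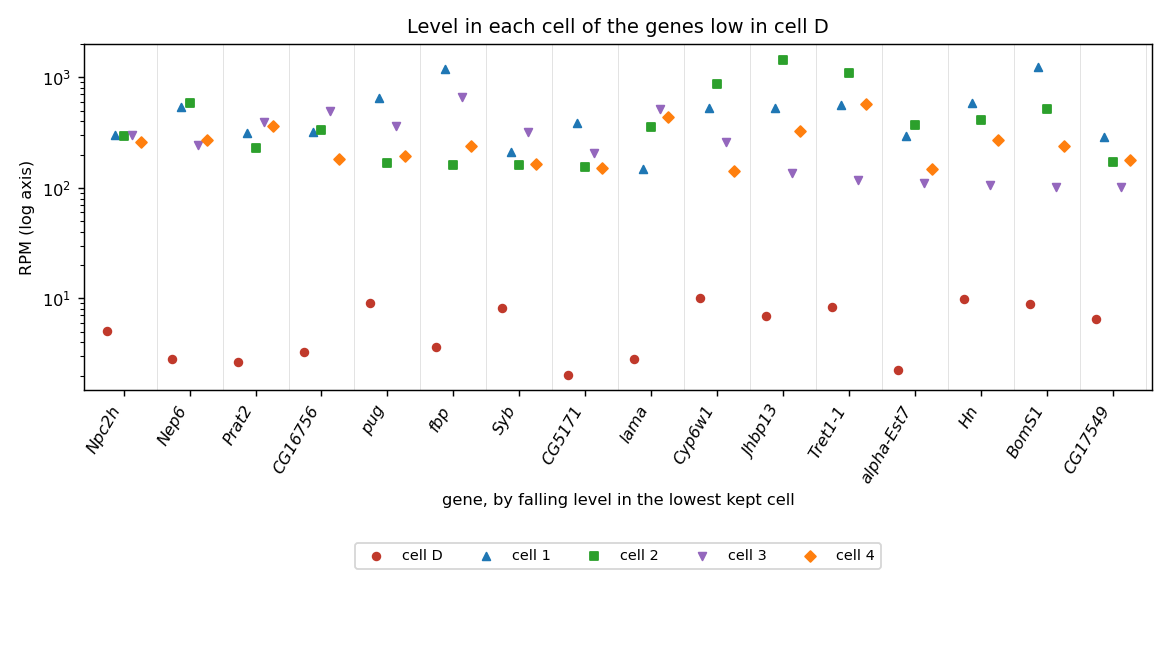
Level (RPM, log axis) of the 16 genes low in cell D, in cell D and in cells 1 to 4. Cell D lay between 2.04 and 9.97 RPM and every kept cell between 103 and 1444 RPM.

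Several members are metabolic enzymes. *Prat2*, an enzyme of purine synthesis (3L, 6911999 to 6914876), was at 2.65 RPM (1.41 to 4.52) in cell D, against 316, 228, 399 and 363 RPM in cells 1 to 4. *pug*, an enzyme of folate metabolism, was at 9.16 RPM in cell D, against 649, 169, 365 and 194 RPM. *fbp*, which encodes fructose bisphosphatase of gluconeogenesis, was at 3.66 RPM in cell D, against 1199, 162, 658 and 239 RPM. *Hn*, the phenylalanine hydroxylase gene, was at 9.77 RPM in cell D, against 586, 408, 106 and 273 RPM. The lowest kept cell was above cell D by 86.2-fold, 18.5-fold, 44.2-fold and 10.8-fold in these 4 genes.

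Other members belong to transport, detoxification and defense. *Npc2h*, of the NPC2 lipid-binding family (3R, 30745479 to 30746290), was at 5.09 RPM (3.29 to 7.51) in cell D, against 304, 297, 301 and 259 RPM, the most even of the set among the kept cells. *Nep6*, of the neprilysin family of peptidases, was at 2.85 RPM in cell D, against 535, 586, 243 and 270 RPM. *Tret1-1*, a trehalose transporter gene and the only one of the 16 in a gene list (glia), was at 8.34 RPM in cell D, against 557, 1106, 117 and 571 RPM. *BomS1*, an immune-induced peptide, was at 8.96 RPM in cell D, against 1229, 517, 103 and 240 RPM. The kept cells differed widely among themselves in this last gene, and none was below 103 RPM.

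*Syb*, the broadly used synaptobrevin, was at 8.14 RPM (5.82 to 11.1) in cell D, against 210, 160, 322 and 165 RPM in cells 1 to 4. The neuronal synaptobrevin *nSyb* ran the other way, at 1221 RPM in cell D, against 93.7, 191, 264 and 595 RPM. The other members were *CG16756*, *CG5171*, *lama*, *Cyp6w1* (a cytochrome P450), *Jhbp13*, *alpha-Est7* (a carboxylesterase) and *CG17549*, at 2.04 to 9.97 RPM in cell D. *Cyp6w1* was the nearest to the limit within the set. The nearest outside was *Idgf6*, a growth factor of the imaginal disc family, at 10.8 RPM in cell D, against 1126, 1753, 439 and 667 RPM. Next came *Mlc2*, a muscle myosin light chain gene, at 12.2 RPM in cell D, against 100, 317, 143 and 678 RPM, and *ImpL2*, which binds insulin-like peptides, at 13.2 RPM, against 648, 493, 903 and 487 RPM. On the other side stood *Rel*, the NF-κB factor of the immune response, at 2.44 RPM in cell D, against 216 RPM in cell 1 and 650 RPM in cell 3, where cell 2 fell just short of 100 RPM.

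A wider description used a 10-fold difference from the nearest kept cell. By it, 153 genes at 100 RPM or more in cell D (9.23%) were at least 10-fold above the highest kept cell. The counts for the kept cells were 54 (3.87%) for cell 1, 6 (0.462%) for cell 2, 84 (7.36%) for cell 3 and 18 (1.34%) for cell 4. In the other direction, 30 genes (7.11%) were at least 10-fold lower in cell D than in the lowest kept cell, against 16 (3.79%) for cell 1, 0 (0%) for cell 2, 78 (15.7%) for cell 3 and 1 (0.270%) for cell 4. Cell D had the highest share in the first count, and cell 3 in the second.

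The 153 genes took 7.92% of the reads of cell D. The highest of them in cell D was *lncRNA:CR44832* (X, 5790952 to 5791536), at 10409 RPM in cell D, against 6.64, 6.08, 31.9 and 6.30 RPM in cells 1 to 4, or 326-fold over the highest. Next to it on the chromosome, 603 bases away with no gene between them and on the opposite strand, lay *CG12239*, at 4261 RPM in cell D, against 0.511, 0.290, 390 and 1.58 RPM. *CG12239* and the genes *jeb*, *kcc* and *GlyT* were singled out after their values were seen. *jeb*, the ligand of the receptor Alk, was at 3254 RPM in cell D, against 2.04, 200, 226 and 3.15 RPM. *kcc*, a potassium chloride cotransporter gene, was at 1340 RPM in cell D, against 7.15, 3.19, 95.9 and 72.3 RPM. Genes of ion and transmitter transport were thus among the 153, *GlyT* at 101 RPM in cell D, against at most 2.90 RPM in a kept cell. *CG31221*, among the 10 highest genes of cell D, was at 6097 RPM, against 84.3, 338, 16.4 and 208 RPM.

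The 30 genes at least 10-fold lower included ribosomal and secreted products. *RpL41*, a ribosomal protein gene, was at 1060 RPM in cell D, against 13413, 20553, 14484 and 13734 RPM. *apolpp*, the apolipoprotein precursor of the fat body, was at 476 RPM in cell D, against 19358, 27558, 5851 and 7049 RPM. *Nplp3* was the only neuropeptide precursor gene among them, at 24.4 RPM in cell D, against 386, 990, 286 and 1744 RPM.

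Genes for more than 1 fast transmitter were high in cell D. *ChAT*, which encodes the enzyme that makes acetylcholine (3R, 18705501 to 18732344), was at 1057 RPM (1028 to 1086) in cell D, against 3.06, 73.9, 0.491 and 13.1 RPM in cells 1 to 4. *ChT*, the transporter that takes up choline, was at 829 RPM in cell D, against 0, 117, 137 and 56.7 RPM, and *Ace*, which breaks acetylcholine down, was at 206 RPM, against 6.38, 88.7, 32.6 and 10.4 RPM. *VGlut*, which loads glutamate into vesicles (2L, 2400295 to 2410662), was at 1392 RPM (1359 to 1425) in cell D, against 18.6, 36.2, 0.491 and 27.7 RPM. For all 4 genes cell D was above every kept cell, by 14.3-fold for *ChAT* and 38.4-fold for *VGlut* over the highest. The acetylcholine transporter *VAChT* was not matched to an identifier and was not analysed here.

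The GABA genes were lower. *VGAT*, the vesicular GABA transporter, was at 42.7 RPM in cell D, against 0, 0.579, 0 and 0 RPM. *Gad1*, which makes GABA, was at 2.24 RPM in cell D, against 0, 55.1, 0 and 0.225 RPM, so that cell 2 was the only library above 10 RPM. High levels of the loader and the enzyme did not occur together in any of the 5 cells.

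Among 11 genes of monoamine synthesis and loading, 1 (9.09%) was at 100 RPM or more in cell D. Cells 1 to 4 had 1, 3, 0 and 2 (9.09%, 27.3%, 0% and 18.2%). Over all genes in the tables the share in cell D was 9.50%. Over the 8827 genes at 1 RPM or more in any cell it was 18.8%, against 15.8%, 14.7%, 12.9% and 15.2% in cells 1 to 4. The share of this list in cell D was thus above neither background. The list gene at that level in cell D was *Ddc*, the decarboxylase shared by dopamine and serotonin synthesis. *Ddc* was at 664 RPM in cell D, against 56.2, 125, 4.17 and 22.1 RPM. *ple*, the first enzyme of dopamine synthesis, was at 4.07 RPM in cell D, against 19.9, 349, 0.491 and 72.0 RPM. *Vmat*, the vesicular loader of monoamines, was at 11.6 RPM, against 110, 59.7, 8.09 and 14.0 RPM, and *Trhn*, the first enzyme of neuronal serotonin synthesis, had 5 reads in cell D and 0 in each kept cell. *Tbh*, the last enzyme of octopamine synthesis, was at 14.7 RPM in cell D, against 0, 0, 0 and 0.225 RPM, while *Tdc2*, which precedes it, had 1 read in cell D and 0 elsewhere. No chain from synthesis to loading was complete at 100 RPM for a monoamine in cell D. *prt*, a vesicular transporter known from mushroom body neurons, was at 38.7 RPM in cell D and at or below 0.290 RPM in the kept cells.

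**Figure D4:**
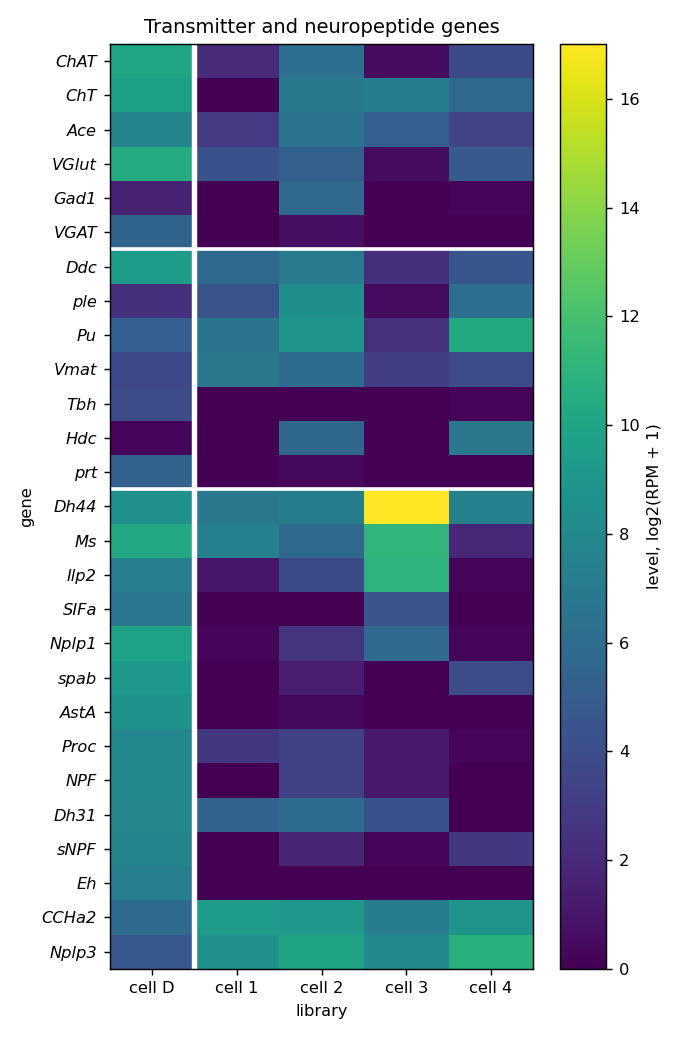
Level, as log2(RPM + 1), of genes of fast transmitters (top), monoamines (middle) and neuropeptides (bottom) in cell D (left column) and in cells 1 to 4. *ChAT* and *VGlut* are both above 1000 RPM in cell D and at or below 73.9 RPM in every kept cell, and *Dh44* is highest in cell 3, at 131997 RPM.

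Neuropeptide genes were numerous in cell D. Of 46 peptide precursor genes, 23 were at 1 RPM or more in cell D, against 12, 17, 16 and 10 in cells 1 to 4, and 11 were at 100 RPM or more, against 4, 5, 6 and 5. Of all genes in the tables, 9.50% were at 100 RPM or more in cell D, against 7.99%, 7.44% and 7.70% in cells 1, 2 and 4 and a lower share in cell 3. Beside *AstA* and *Eh*, *Nplp1*, a neuropeptide-like precursor, was at 912 RPM in cell D, against 0.255, 5.22, 54.2 and 0.225 RPM. *spab* was at 540 RPM in cell D, against 0, 1.45, 0 and 14.6 RPM. *Proc*, the proctolin precursor, was at 246 RPM in cell D, against 5.62, 8.69, 1.23 and 0.225 RPM. These 3 were above every kept cell by 16.8-fold, 36.9-fold and 28.3-fold.

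The peptides *NPF* and *sNPF*, which act in feeding, followed the same order. *NPF* was at 244 RPM in cell D, against 0, 9.27, 1.23 and 0 RPM, and *sNPF* at 203 RPM, against 0, 2.61, 0.245 and 5.63 RPM. *Dh31* was at 233 RPM in cell D, against 37.8, 59.7, 18.6 and 0 RPM. A few peptides ran the other way. *CCHa2* was at 57.2 RPM in cell D, against 670, 563, 147 and 440 RPM, and *ITP* was at 0.814 RPM, against 1.53, 134, 76.5 and 140 RPM. *Pdf*, *Lk*, *Hug* and *CCAP* had 0 reads in cell D.

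Of 8 peptides by which PI cells are named, 6 were at 1 RPM or more in cell D, and *Ms* and *Dh44* took most of their sum. *Dh44* was at 381 RPM in cell D, against 111, 147, 131997 and 171 RPM in cells 1 to 4. *Ms*, the myosuppressin gene, was at 1218 RPM in cell D, against 167, 58.5, 2302 and 2.70 RPM. *SIFa* was at 99.5 RPM in cell D, against 0, 0, 19.6 and 0 RPM, and was the only 1 of these peptides highest in cell D. The counts of *SIFa* depend on the counting: by MMQuant reads of the gene alone it was at 535 RPM in cell D, against 1.05, 0.218, 93.4 and 0.2 RPM, with a further 372 reads in cell D shared with an overlapping gene. *Dh44*, with no shared reads, was at 184 RPM in cell D by MMQuant, against 35.6, 35.5, 66084 and 71.2 RPM. The order of *SIFa* and *Dh44* in cell D therefore turned with the counting. *Ilp2*, *Ilp3* and *Ilp5*, the insulin-like peptides of the red cells that the harvest avoided, were at 156, 11.2 and 22.8 RPM in cell D, each above cells 1, 2 and 4 and below cell 3, which had 2006, 62.3 and 35.1 RPM. *Dsk* had 1 read in cell D, against 0, 0, 0 and 460 reads in cells 1 to 4.

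The machinery of peptide storage was less set apart. Of 11 matched genes of dense-core vesicles and peptide processing, 7 were at 100 RPM or more in cell D, against 4, 6, 7 and 4 in the kept cells. *amon*, a prohormone convertase gene, was at 906 RPM in cell D, against 0.766, 109, 1347 and 27.2 RPM. *7B2*, its chaperone, was at 1474 RPM in cell D, against 110, 7.82, 16039 and 10.1 RPM. Cell 3 exceeded cell D in both genes.

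Genes used by neurons in general were high in cell D. All 16 pan-neuronal genes were at 100 RPM or more in cell D, against 4, 10, 11 and 11 in cells 1 to 4, and 14 of the 16 were highest in cell D. The background for this and the following list counts is the 8827 genes at 1 RPM or more in any cell. Some of the following lists also hold genes below that level in every cell. Of these, 18.8% were at 100 RPM or more in cell D, against 15.8%, 14.7%, 12.9% and 15.2% in cells 1 to 4. Cell D was highest in 3348 of the 8827. *elav*, an RNA-binding protein of neurons, was at 675 RPM in cell D, against 0.255, 123, 21.6 and 81.3 RPM. *brp*, the scaffold of the presynaptic active zone, was at 356 RPM in cell D, against 0, 20.3, 8.34 and 8.33 RPM. *Syn*, the vesicle protein synapsin, was at 1518 RPM in cell D, against 43.9, 25.5, 3.19 and 69.1 RPM. The exceptions were *Nrg*, at 142 RPM in cell D, against 144, 372, 786 and 126 RPM, and *Rbp9*, at 442 RPM, against 220, 134, 480 and 174 RPM.

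Synaptic vesicle release genes showed the same order, with 24 of 25 at 100 RPM or more in cell D, against 4, 6, 15 and 8. *Snap25*, a SNARE of the presynaptic membrane, was at 2248 RPM in cell D, against 9.45, 53.0, 209 and 316 RPM. *Rbp*, which ties calcium channels to the active zone, was at 699 RPM in cell D, against 0.766, 30.4, 9.57 and 40.5 RPM. *Rim2* was the gene short of 100 RPM, at 75.1 RPM in cell D, against 84.6 RPM in cell 4. The synaptotagmin genes *Sytalpha* and *Sytbeta* were at 107 and 270 RPM in cell D, against 357 and 382 RPM in cell 3.

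**Figure D5:**
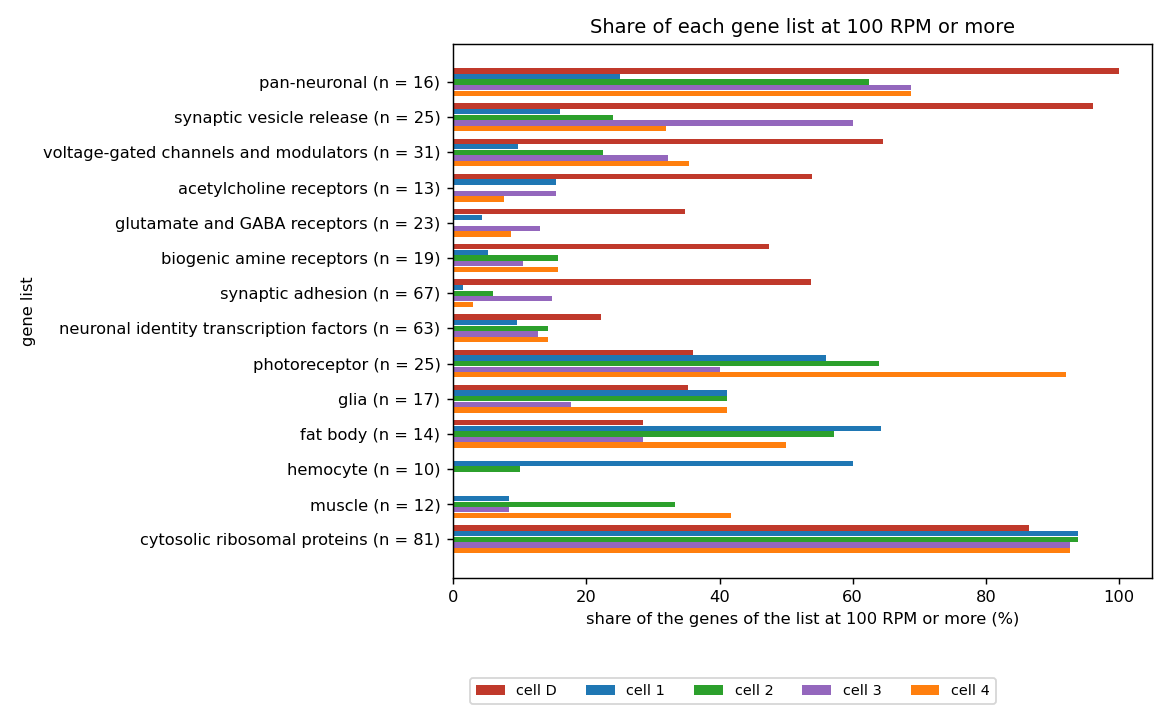
Share of the genes of each list at 100 RPM or more, in percent, for cell D (top bar of each group) and cells 1 to 4. Cell D is at 100% for the pan-neuronal genes and 96.0% for vesicle release, and has no hemocyte or muscle gene at that level. Cells 3 and 4 also have no hemocyte gene at that level.

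Among 31 voltage-gated channel genes and their modulators, 20 (64.5%) were at 100 RPM or more in cell D, against 3, 7, 10 and 11, and 27 were highest in cell D. *para*, the sodium channel gene, was at 2603 RPM in cell D, against 1.02, 182, 866 and 141 RPM. *Sh*, a potassium channel gene, was at 4871 RPM in cell D, against 6.13, 162, 722 and 1399 RPM. *Shaw*, another, was at 333 RPM in cell D, against 0.766, 0.290, 3.19 and 2.48 RPM. *slo*, the calcium-activated potassium channel gene, was at 1883 RPM in cell D, against 42.1, 139, 657 and 207 RPM. A few potassium channels were lower, among them *Irk2*, at 60.7 RPM in cell D, against 2.81, 123, 122 and 382 RPM.

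Receptor genes for acetylcholine were at 100 RPM or more in cell D in 7 of 13 (53.8%), against 2, 0, 2 and 1, and cell D was highest in all 11 that reached 1 RPM anywhere. *nAChRalpha5* was at 707 RPM in cell D, against 1.28, 14.5, 3.68 and 20.9 RPM. *nAChRalpha7* was at 1785 RPM in cell D, against 134, 97.9, 0.245 and 30.4 RPM. *nAChRbeta2* was at 38.9 RPM in cell D, with 0 reads in every kept cell, and *nAChRbeta1* at 2205 RPM, against 0.255, 12.7, 509 and 35.3 RPM.

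Of 23 glutamate and GABA receptor genes, 8 (34.8%) were at 100 RPM or more in cell D, against 1, 0, 3 and 2. *mGluR*, the metabotropic glutamate receptor gene, was at 482 RPM in cell D, against 0.255, 0, 0 and 33.8 RPM. *GluRIB*, of the AMPA type, was at 338 RPM in cell D, against 0, 2.03, 0 and 20.3 RPM. *Rdl*, the GABA-gated chloride channel gene, was at 2307 RPM in cell D, against 169, 54.8, 728 and 106 RPM, while *GluClalpha*, the glutamate-gated chloride channel gene, was at 620 RPM in cell D, against 0.255, 6.37, 808 and 4.73 RPM, and so highest in cell 3. Of 19 receptor genes for biogenic amines, 9 (47.4%) were at 100 RPM or more in cell D, against 1, 3, 2 and 3. *Octbeta3R*, for octopamine, was at 255 RPM in cell D, against 0, 0, 0 and 3.38 RPM, and *Oamb* was at 311 RPM, against 0.255, 26.4, 0 and 0.225 RPM. Receptors of serotonin were split, with *5-HT2A* at 8.75 RPM in cell D, against 0.255, 70.1, 0 and 165 RPM.

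Cell surface families were read widely in cell D. Of 67 matched genes of synaptic adhesion, 36 were at 100 RPM or more in cell D, against 1, 4, 10 and 2, and 64 were at 1 RPM or more, against 13, 35, 31 and 35. Cell D was highest in 54 of the 67, and in 3348 of the 8827 genes at 1 RPM or more in any cell. All 21 *dpr* genes were at 10 RPM or more in cell D, against 3, 7, 10 and 4 in cells 1 to 4. All 11 *DIP* genes were at 1 RPM or more in cell D, against 0, 3, 0 and 2. Of 14 *beat* genes, 13 were at 10 RPM or more in cell D, against 1, 2, 4 and 4, and of 8 *side* genes, 7, against 0, 1, 3 and 4. Of all genes, 4922 were at 10 RPM or more in cell D, against 3074, 4340, 2336 and 4477 in cells 1 to 4. Nearly the whole of these families was therefore read in the library of cell D. These family counts were added after the values were seen.

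Single members differed in how far they were shared. *dpr11*, at 68.4 RPM in cell D, *dpr16*, at 63.5 RPM, and *DIP-eta*, at 76.5 RPM, had 0 reads in every kept cell. *dpr7* was at 439 RPM in cell D, against 0, 26.9, 16.9 and 0.901 RPM. *dpr12*, by contrast, was at 426 RPM in cell D, against 0.255, 28.7, 624 and 0.901 RPM, and *dpr3* at 81.8 RPM, against 0, 0, 238 and 0 RPM, so that cell 3 was higher in both. *Dscam2*, a repulsive surface protein, was at 1008 RPM in cell D, against 0, 0.290, 257 and 4.73 RPM.

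Of 63 matched transcription factors and RNA-binding proteins that mark neuron types, 14 (22.2%) were at 100 RPM or more in cell D, against 6, 9, 8 and 9 in cells 1 to 4. Over all genes in the tables the share in cell D was 9.50%. Of the 63, only 49 reached 1 RPM in any cell, so the 18.8% among all genes at that level is not a like background for this share. Beside *pros*, several of the 14 were not highest in cell D. *mamo* was at 1119 RPM in cell D, against 350, 599, 1548 and 1115 RPM, and *Syp*, an RNA-binding protein of neuron birth order, at 1043 RPM, against 1735, 2576, 894 and 1956 RPM. *hth* was at 630 RPM in cell D, against 445, 1264, 395 and 757 RPM. Others were highest there. *chinmo*, a temporal factor of neurons, was at 976 RPM in cell D, against 18.9, 172, 3.92 and 198 RPM. *toy*, a Pax6 gene, was at 954 RPM in cell D, against 250, 111, 134 and 140 RPM. *D* (Dichaete), a Sox factor, was at 349 RPM in cell D, against 0, 38.0, 0 and 0.450 RPM, and *pdm3*, a POU factor, was at 238 RPM, against 0.255, 26.9, 24.0 and 2.25 RPM. *Lim1* was shared with cell 3, at 405 RPM in cell D, against 0.511, 15.9, 520 and 0.675 RPM. Among lower genes, *Rx* (56.2 RPM), *pdm2* (15.5 RPM) and *nub* (14.2 RPM) had 0 reads in every kept cell. Other factors were lower in cell D. *oc* was at 0 RPM in cell D, against 8.94, 32.7, 0.245 and 62.4 RPM, and *svp* at 39.9 RPM, against 279, 286, 0 and 44.1 RPM.

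Markers of Kenyon cells, the intrinsic neurons of the mushroom body, were also read. All 14 of that list were at 10 RPM or more in cell D, against 6, 9, 10 and 9 in the kept cells, and 8 were at 100 RPM or more, against 5, 6, 4 and 4. *jdp* was at 996 RPM in cell D, against 142, 83.4, 4.66 and 77.7 RPM, *Mef2* at 109 RPM, against 0, 56.8, 88.8 and 63.9 RPM, and *ey* at 46.2 RPM, against 0, 0.290, 20.6 and 0.675 RPM. In the list, 11 genes were highest in cell D and 3 (*Fas2*, *rut* and *dac*) in cell 3. *dac* was at 18.7 RPM in cell D, against 45.6 RPM in cell 3. Cell D thus held genes of cholinergic and of glutamatergic neurons together with peptide, PI and Kenyon cell genes. Each of these groups was also read in kept cells. At 1 RPM or more, cells 1 to 4 had 2, 3, 2 and 3 of the 3 matched acetylcholine genes, against 3 in cell D. *VGlut* reached that level in cells 1, 2 and 4. Of 38 other peptide genes, cells 1 to 4 had 9, 13, 10 and 6, against 17 in cell D. Of the 8 PI peptides they had 3, 4, 6 and 4, against 6 in cell D. Of the 14 Kenyon cell genes they had 7, 10, 11 and 10, against 14. No class of neuron was given to cell D from these counts.

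Genes induced by neuronal activity were high in cell D. *Hr38* was at 183 RPM in cell D, against 0.255, 2.90, 0 and 3.38 RPM, and *sr* at 822 RPM, against 61.5, 48.7, 0.245 and 0.225 RPM. Over the 19 genes of the immediate early and stress list, 10 (52.6%) were at 100 RPM or more in cell D, against 1, 4, 4 and 2. The heat shock gene *Hsp26* was at 297 RPM in cell D, against 2.30, 81.1, 0 and 4.28 RPM. Of 8 core clock genes, 2 were at 100 RPM or more in cell D, against 1, 3, 3 and 3. *Pdp1*, a transcription factor of a clock feedback loop, was at 2907 RPM in cell D, against 1176, 1423, 534 and 1954 RPM, and carried most of the sum of that list. Other members did not share this order, with *tim* at 17.1 RPM in cell D, against 91.2 RPM in cell 1 and 120 RPM in cell 4, and *Clk* at 0 reads in cell D, against 0, 134, 410 and 111 reads.

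Summed marker genes of other cells were lowest in cell D for some lists and not for others. The 25 photoreceptor genes summed to 6832 RPM in cell D, against 18738, 22364, 6903 and 64370 RPM, and 22 of them were at 1 RPM or more in cell D. *ninaE*, the main rhodopsin, was at 304 RPM in cell D, against 6578, 10178, 1092 and 22428 RPM. The 14 fat body genes summed to 1117 RPM in cell D, against 47432, 40340, 9993 and 18644 RPM, with 11 at 1 RPM or more in cell D and *Yp1*, a yolk protein, at 202 RPM, against 10691, 3012, 1948 and 4271 RPM. The fat body sum was lowest in cell D. That of the photoreceptor genes was about level in cells D and 3, and without *Ggamma30A*, a G protein subunit gene and the member highest in cell D, it was 3264 RPM in cell D, against 16888, 20020, 2921 and 56272 RPM, an alternative chosen after seeing the data. *Lsp2*, a larval serum protein of the fat body, was at 1.22 RPM in cell D, and *inaC*, an eye protein kinase, also at 1.22 RPM.

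Hemocyte genes (10) summed to 84.3 RPM in cell D, against 2076, 410, 93.7 and 177 RPM, and 12 muscle genes to 72.7 RPM, against 351, 988, 352 and 1444 RPM. *NimC1*, a hemocyte receptor gene, was at 0.204 RPM in cell D, and *Act88F*, a flight muscle actin, had 0 reads. Glia stood between, with 17 matched genes at 2448 RPM in cell D, against 2997, 5142, 914 and 6050 RPM. *repo*, the glial determinant, was at 7.53 RPM in cell D, against 0.255, 0, 0 and 67.5 RPM, and *alrm*, of astrocytes, at 111 RPM, against 0, 29.3, 0 and 0.225 RPM. The paper also reports genes of glia, fat body and photoreceptors in its sequenced cells. It names debris of other cells drawn into the pipet as a possible source, which it could not exclude. The part of RNA from such cells in the 2 gene sets was not tested.

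Ribosomal protein genes also differed. The 81 genes took 4.22% of the reads of cell D, against 29.4%, 26.5%, 26.7% and 21.8% in cells 1 to 4, and cell D was the lowest in all 76 that were detected. RPM is a share of a fixed total, so the level of every other gene depends on this share. With these genes left out of the total, levels shifted by 0.06 on the log2 scale in cell D, against 0.50, 0.45, 0.45 and 0.36 in cells 1 to 4. The genes of cell D alone were then 21, the 20 included. The genes low in cell D were 20, of which 14 were among the 16. The genes at least 10-fold over the kept cells were 127, and those at least 10-fold lower became 54. Nuclear genes of oxidative phosphorylation took 1.72% of the reads in cell D, against 2.20%, 1.94%, 1.03% and 2.57%.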

How the data were processed

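The authors amplified poly(A) RNA of each cell in 3 rounds, which places reads at the 3′ ends of transcripts, sequenced unstranded 100-base single-end libraries, trimmed reads with Trim Galore and PRINSEQ, and mapped them to dm6 with STAR in Galaxy, with the BDGP6.87 annotation. The deposited STAR tables hold raw counts per gene after 4 totals of unassigned reads, which were left out here. The deposited MMQuant counts, also made by the authors, give reads of overlapping genes to the group. Samples were taken from the records of the files.

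RPM was computed over the reads assigned to genes in the unstranded column. Of 17453 identifiers, 17181 were given a symbol, 2 of them (*para*, *Ca-beta*) from the paper and the rest from Ensembl release 115 (BDGP6.54, the same assembly as dm6). A fold against 0 reads used a limit of 3 reads over the pooled kept cells. Where the kept cells had reads, the interval of a ratio to their pooled level is an exact binomial 95% interval. No test across groups was run. The selection rule was also run on simulated counts with planted genes that meet it. It was bound to find them, so this checks the calculation only and not the gene sets. Calculations used Python 3.11.15, numpy 2.4.6, pandas 2.3.3, scipy 1.17.1 and matplotlib 3.10.9.

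The gene sets and the 26 lists were chosen with earlier results of these data known. Named genes were the members of both sets and the genes nearest their limits, the 10 highest of cell D, the markers, and list members, chiefly those at 10 RPM or more in cell D for transmitters, peptides and transcription factors, and at 100 RPM or more for the other lists. Markers of other cells and list members that were low in cell D are named beyond that rule, after their values were seen. The 10-fold rule was added after seeing the data. In the lists, 17 symbols were not matched, *VAChT*, *Phm*, *Imp* and *ap* among them. Alternatives were other denominators, stranded and MMQuant counts, thinned libraries, other limits, and leaving out each kept cell.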

Additional observations from a re-analysis of the deposited data

Results flagged for a closer look

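Among the 4 kept cells, 32 values (the summed level of each gene list and the level of each marker) were examined on the log2(RPM + 1) scale for a cell far from the rest, by the gap to the nearest other cell as a share of the range (Dixon's 95% critical value). For independent, normally distributed values chance alone gives about 1 such value in 20, and 2 were found. Some lists share genes, and *VGlut* is both a list of its own and a marker, so that rate need not hold here. Summed over the PI neuropeptides, cell D had 1889 RPM, and among the kept cells cell 3 stood far above the others, at 136422 RPM, where cells 1, 2 and 4 had 279, 222 and 279 RPM. Summed over the GABA genes, cell D had 45.0 RPM, and among the kept cells cell 2 stood far above the others, at 55.6 RPM, where cells 1, 3 and 4 had 0, 0 and 0.225 RPM. In cell 2 this sum was almost all *Gad1*, at 55.1 RPM. The cause was not tested.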

How the results depend on the processing

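When levels were taken over every uniquely mapped read, which lowers all of them, 7 genes were of cell D alone, 9 were low in cell D and 93 were at least 10-fold over the highest kept cell. Limits of 50 and 200 RPM gave 59 and 5 genes of cell D alone and 43 and 3 low in cell D. Requiring 0 reads in the kept cells left 9 of the first set, and at most 1 RPM or 1 read in cell D left 0 of the second. With ribosomal protein genes out of the denominator, an alternative chosen after seeing the data, 54 genes were at least 10-fold lower. Leaving out 1 kept cell gave 22 to 40 genes of cell D alone (39 without cell 2, 40 without cell 4), 18 to 76 low in cell D (76 without cell 3), 169 to 260 at least 10-fold over (251 without cell 3, 260 without cell 4) and 33 to 136 at least 10-fold under (136 without cell 3). With MMQuant reads of the gene alone, 14 genes were of cell D alone, all among the 20, and with stranded counts 16 were. Those lost with MMQuant were *5-HT1A*, *cmpy*, *kel*, *vex*, *CG13739* and *CG8641*. The genes low in cell D were 17 with MMQuant, 11 of them among the 16, and 18 with stranded counts, 13 of them among the 16. Of the counts for kept cells, that of cell 1 became 1 with MMQuant and 4 after thinning, and that of cell 4 became 1 and 2. Under every counting alternative 9 genes were at 100 RPM or more in cell D, among 17 of transmitter synthesis and loading and 4 markers. The 4 markers (*lncRNA:mimi*, *IA-2*, *lncRNA:noe* and *pros*) lie so far above the limit that no alternative could move them below it. Under the same alternatives 15 or 16 of the 26 lists had their highest median in cell D. By MMQuant the levels in cell D of *NPF*, *Octbeta3R*, *Shaw*, *Sytalpha* and *VGAT* became 154, 162, 217, 64.8 and 21.2 RPM, each over 1.5 times lower. No paired analysis was possible because cell D is a single library. With 1 cell, differences between cell D and other cells of its kind cannot be told from differences between libraries.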
